A study of Mus musculus with 2 samples.

Results

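Variant histones and the chaperones that carry H3-H4 were represented by 10 genes, chosen by symbol from 43346 gene rows. They are the H2A variants H2afz, H2afv, H2afx and H2afy, the H3.3 genes H3f3a and H3f3b, the linker histones H1f0 and H1fx, and the chaperones Nasp and Asf1b. Both libraries came from mouse forebrain at embryonic day 11.5, strain B6NCrl, labelled healthy, with tissue of male and female embryos pooled. Replicate 1 was made from 109 embryos and replicate 2 from 88 embryos. Each library was built by a SmartSeq protocol, which copies and amplifies full-length cDNA, from 1 cell-equivalent of RNA longer than 200 nucleotides. The labels name the assay single cell RNA-seq; since the RNA came from pooled tissue, each library is 1 bulk sample. There is 1 group of 2 libraries, so no groups could be compared and no p-value is given. Levels are TPM, transcripts per 1000000 transcripts, which are per length and can be compared between genes. Paired values are replicate 1 followed by replicate 2 unless stated otherwise.

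The libraries held 28639678 and 28948074 expected counts. Spike-ins took 4.35% and 3.35% of them, and 8.44% and 6.56% of the TPM. At a TPM of at least 1, 7207 of the 43346 gene rows (16.6%) were detected in both libraries. Of 6 forebrain region markers 5 were detected in both, with Six3 the exception at 2.07 and 0 TPM, and all 6 markers of midbrain, hindbrain and trunk (En1, En2, Gbx2, Hoxa5, Hoxb4, Hoxb6) had 0 counts in both. All 7 markers of dividing cells were detected in both libraries, with a summed level of 2284 and 2171 TPM. Of these, 2 were higher in replicate 2 and 5 in replicate 1. All 6 neural progenitor markers were detected in both and summed to 1334 TPM in replicate 1 and 2496 TPM in replicate 2. They did not move together: 4 were higher in replicate 2 and 2 in replicate 1. Of the 3 that differed 2-fold, Fabp7 (438 and 1010 TPM) and Hes5 (24.7 and 104.5 TPM) were higher in replicate 2. Pax6 was higher in replicate 1, at 85.55 and 30.12 TPM. The 5 young neuron markers, also detected in both, summed to 846 and 839 TPM. They too moved in opposite directions, with Dcx at 16.1 and 95.6 TPM and Elavl3 at 17.4 and 2.3 TPM. Red blood cell markers summed to 19755 and 24172 TPM, endothelial markers to 97.8 and 74.2 TPM, mesenchymal markers to 336 and 250 TPM and myeloid markers to 81.5 and 27.1 TPM, with the myeloid gene Ptprc at 0 counts in both. Endothelial markers moved in opposite directions (Pecam1 at 19.72 and 0.02 TPM, Kdr at 14.27 and 17.25 TPM). So did mesenchymal markers (Lum at 169 and 62.65 TPM, Col3a1 at 85.8 and 117 TPM). In pooled tissue, fewer cells of a type and less RNA per cell cannot be told apart, and the part of these cell types in the levels below was not tested.

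Most histone genes are replication-dependent: they are transcribed in S phase, and their mRNA ends in a stem-loop in place of a poly(A) tail. Variant histones are encoded by separate genes, most of them with introns and polyadenylated mRNA, and can be made and placed into chromatin at any time in the cell cycle. H3.3 is placed at active genes by the HIRA complex and at heterochromatic repeats by DAXX and ATRX, and H2A.Z is placed near promoters by the SRCAP and p400 complexes. New H3-H4 pairs are held by NASP and passed through ASF1 to the assembly factor CAF-1 behind the replication fork. The embryonic forebrain wall at this age is made largely of dividing progenitors.

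The H3.3 and H2A.Z pairs each encode near-identical proteins from different DNA, and each has a processed copy elsewhere in the genome. The first 120 coding bases of the H3.3 pair and of the copy H3f3c are shown because reads are assigned between these rows by such differences. Sequences are of mm10, 5′ to 3′ on the coding strand, with the gene annotation of GENCODE release M21. H3f3a lies at chr1:180811807-180811926 and H3f3b at chr11:116023890-116024009, both on the minus strand. H3f3c lies at chr2:119665917-119666036, also on the minus strand. Capitals mark bases that differ from H3f3a.
H3f3a: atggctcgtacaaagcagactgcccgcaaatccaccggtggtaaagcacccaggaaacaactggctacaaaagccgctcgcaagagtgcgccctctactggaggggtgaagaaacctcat
H3f3b: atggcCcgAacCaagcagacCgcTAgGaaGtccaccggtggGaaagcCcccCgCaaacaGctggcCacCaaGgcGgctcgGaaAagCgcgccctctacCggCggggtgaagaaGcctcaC
H3f3c: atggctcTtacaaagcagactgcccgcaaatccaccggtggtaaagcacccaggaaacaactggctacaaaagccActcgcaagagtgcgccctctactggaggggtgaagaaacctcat

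Over the full coding sequence, H3f3a and H3f3b had the same base at 313 of 408 positions (76.7%) and the same residue at 136 of 136. H3f3b differed from H3f3a at 24 of the 120 bases shown. The processed pseudogene H3f3c differed at 2 of these 120 bases and at 4 of its 411 bases in all.

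The same stretch is shown for the H2A.Z pair and for Gm8203, a processed pseudogene. H2afz (plus strand) spans chr3:137864694-137865558 and H2afv (minus strand) spans chr11:6433799-6444339 with introns removed, and Gm8203 (plus strand) lies at chr6:116173737-116173856. Capitals mark bases that differ from H2afz.
H2afz: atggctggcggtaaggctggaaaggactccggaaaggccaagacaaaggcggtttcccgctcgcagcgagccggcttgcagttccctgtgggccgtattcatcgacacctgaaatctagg
H2afv: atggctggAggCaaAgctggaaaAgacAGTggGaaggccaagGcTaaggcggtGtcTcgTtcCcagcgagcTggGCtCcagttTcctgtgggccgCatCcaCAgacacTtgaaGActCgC
Gm8203: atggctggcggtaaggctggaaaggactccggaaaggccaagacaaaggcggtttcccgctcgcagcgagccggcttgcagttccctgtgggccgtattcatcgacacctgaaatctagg

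H2afz and H2afv shared 304 of 384 coding bases (79.2%) and 125 of 128 residues. The 3 residue differences, from H2afz to H2afv and counted from the first methionine as 1, were T15A, S39T and V128A. Gm8203 matched the H2afz coding sequence and stop codon at 387 of 387 bases, so a read that lies wholly inside the coding sequence cannot be told apart between these rows.

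In mm10 with M21 gene limits, the H2A variants lie at chr3:137864487-137866922 (H2afz, plus strand), chr11:6427229-6444443 (H2afv, minus strand), chr9:44334694-44336077 (H2afx, plus strand) and chr13:56073619-56136361 (H2afy, minus strand). H3f3a lies at chr1:180800832-180813943 and H3f3b at chr11:116021912-116027962, both on the minus strand. The linker histone genes have a single exon each, H1f0 at chr15:79028450-79030504 on the plus strand and H1fx at chr6:87980421-87981637 on the minus strand. Nasp lies at chr4:116601052-116627941 on the minus strand and Asf1b at chr8:83955507-83970197 on the plus strand.

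All 10 genes were detected in both libraries, beside 16.6% of all gene rows and 30.4% of protein-coding rows. The 10 genes fell into 3 ranges: 4 genes between 1097 and 4597 TPM, 5 genes between 51.9 and 420 TPM, and H1fx below 10 TPM. Together they held 1.04% of the counts in gene rows in replicate 1 (95% Clopper-Pearson interval 1.037 to 1.045%) and 0.981% in replicate 2 (0.978 to 0.985%). These intervals cover counting error only.

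**Figure D1:**
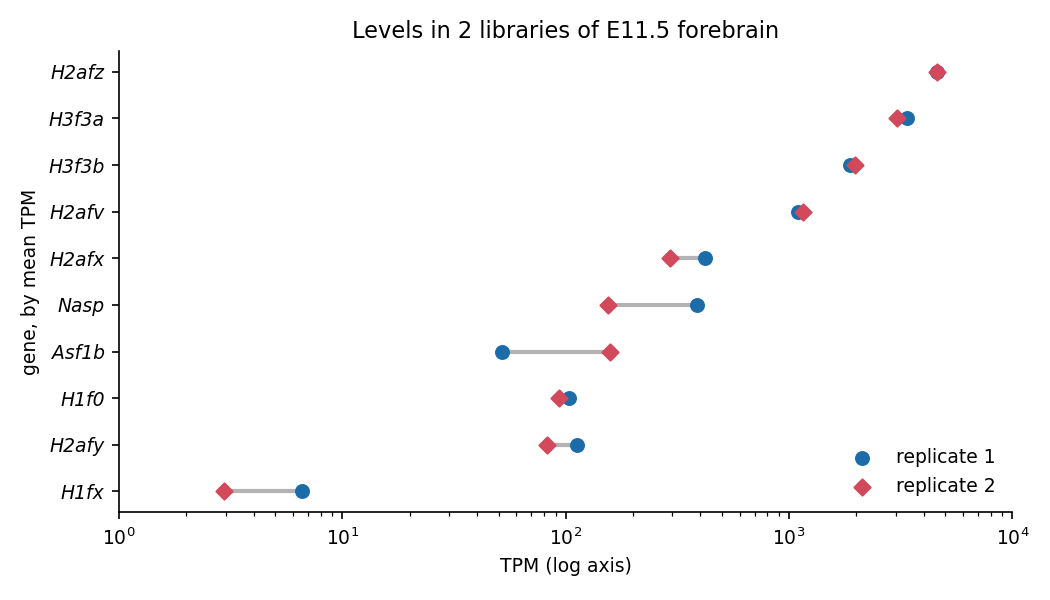
Level of each of the 10 genes (TPM, log axis) in replicate 1 (circles) and replicate 2 (diamonds), ordered by mean TPM, with a line joining the pair. The points of H2afz, H3f3a, H3f3b and H2afv lie close together at the top, and those of Nasp and Asf1b lie far apart.

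H2afz, the main H2A.Z gene, was the most abundant of the 10. It measured 4597 and 4582 TPM, a mean of 4589 ± 10.8 TPM (SD, n = 2), and ranked 13th and 15th among all gene rows. Its posterior count SD in the authors' tables, which reflects how reads were divided between rows, was 203 and 220 counts of 93720 and 92670. The identical copy Gm8203 was given 7627 and 7772 counts, 8.14% and 8.39% of the number on H2afz, and was listed at 1183 and 1217 TPM on its 387 bases. The TPM of the 2 rows, each divided by its own length, summed to a mean of 5789 TPM. This sum is not the level that H2afz would have if those counts were moved to its longer length.

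H2afv, the second H2A.Z gene, measured 1097 and 1154 TPM, a mean of 1125 ± 40.2 TPM (SD, n = 2). The level of H2afz was 4.19 and 3.97 times that of H2afv. Their levels did not overlap with each other or with those of any neighbour in the order of levels.

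The H3.3 genes came next to H2afz. H3f3a measured 3370 and 3045 TPM, a mean of 3208 ± 230.1 TPM (SD, n = 2), and H3f3b measured 1880 and 1962 TPM, a mean of 1921 ± 58.5 TPM (SD, n = 2). Both libraries placed H3f3a above H3f3b in TPM, by 1.79 and 1.55 times. The order in expected counts was the reverse, 62051 and 58990 for H3f3a against 69114 and 73613 for H3f3b, since the deposited lengths of H3f3b (1742 and 1790 bases) were longer than those of H3f3a (922 and 972 bases). The copy H3f3c was listed at 530 and 490 TPM, from 3702 and 3389 counts, and the copy H3f3a-ps2 at 17.0 and 18.1 TPM. H3f3a-ps1 was listed at 1.81 and 1.06 TPM. The TPM of H3f3a, H3f3c and H3f3a-ps2, each on its own length, summed to a mean of 3735 TPM. This too is not a level of H3f3a with the counts of its copies moved to it.

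H2afx encodes the H2A variant that is phosphorylated on a serine near its end at DNA breaks. It measured 420 and 292 TPM, a mean of 356 ± 90.5 TPM (SD, n = 2), 1.44 times higher in replicate 1. H2afx is a gene of a single exon at chr9:44334694-44336077, plus strand, and had 1 transcript in the tables. The last 45 coding bases, at chr9:44335149-44335193, are shown with the codons of the phosphorylated SQEY end and the stop in capitals.
H2afx: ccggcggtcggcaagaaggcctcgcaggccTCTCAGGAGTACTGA

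H2afx also carries the sequence of a histone stem-loop after its coding region, at chr9:44335235-44335260, shown with the 16 matching bases in capitals.
H2afx-201: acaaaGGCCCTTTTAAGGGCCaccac

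The match starts 46 bases after the stop codon and ends 822 bases before the annotated end of the transcript, so the deposited row stands for a longer mRNA than one cut at the stem-loop. The search used the histone stem-loop consensus on the sense strand of annotated transcripts. It was found in 67 of 21877 protein-coding genes (0.306%), in 46 of 67 genes named Hist and in 1 of the 10 genes, H2afx. A match is a description of the letters and was not tested as a processing site.

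H2afy encodes macroH2A1, an H2A with a large additional macro domain. It measured 113 and 82.2 TPM, a mean of 97.5 ± 21.6 TPM (SD, n = 2). Its protein has a pair of forms that differ by mutually exclusive exons: macroH2A1.1 binds ADP-ribose, and macroH2A1.2 does not. The exon of each form is shown in capitals between 12 coding bases on each side, at chr13:56089758-56089857 for H2afy-201 and chr13:56088252-56088342 for H2afy-202, both on the minus strand.
H2afy-201: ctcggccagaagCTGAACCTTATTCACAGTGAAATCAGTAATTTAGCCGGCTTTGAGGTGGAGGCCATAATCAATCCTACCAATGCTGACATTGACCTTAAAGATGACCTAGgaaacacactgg
H2afy-202: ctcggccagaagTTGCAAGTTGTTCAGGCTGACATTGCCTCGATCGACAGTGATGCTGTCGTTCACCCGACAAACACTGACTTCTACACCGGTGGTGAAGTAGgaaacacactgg

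H2afy-201, with the 100-base exon of the macroH2A1.2 form, was at 97.5 and 76.2 TPM and held 86.5% and 92.7% of the TPM of the gene. H2afy-202, with the 91-base exon of the macroH2A1.1 form, was listed at 0 in both libraries, with upper interval limits of 0.892 and 0.730 TPM in the authors' tables. The remaining share lay on forms with no annotated coding sequence. H2afy-206, a retained-intron form, was at 15.0 TPM in replicate 1 and 0.19 TPM in replicate 2.

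The linker histones bind the DNA that enters and leaves the nucleosome. H1f0, the H1 that accumulates in cells that have stopped dividing, measured 103 and 93.6 TPM, a mean of 98.3 ± 6.63 TPM (SD, n = 2). H1fx was the lowest of the 10, at 6.59 and 2.94 TPM from 165 and 73 counts. H1f0 was above H1fx by 15.6 and 31.8 times, and the levels of these 2 genes did not overlap.

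Nasp, which holds the soluble store of H3-H4, measured 386 TPM in replicate 1 and 155 TPM in replicate 2, a mean of 270.4 ± 164 TPM (SD, n = 2). Asf1b, the ASF1 chaperone of dividing cells, measured 51.9 and 158 TPM, a mean of 105 ± 74.9 TPM (SD, n = 2). Neither pair of values was close, and the directions were opposite: Nasp was 2.50 times higher in replicate 1, and Asf1b was 3.04 times higher in replicate 2. As a ratio of counts per 1000000, replicate 2 over replicate 1, Nasp stood at 0.431 (95% exact interval for counting error alone 0.420 to 0.443) and Asf1b at 2.95 (2.81 to 3.11).

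The order of levels was the same in both libraries from H2afz to H2afx, where no neighbours overlapped. H2afx and Nasp, Nasp and Asf1b, Asf1b and H1f0, and H1f0 and H2afy overlapped in their ranges over the libraries. Overlap of ranges from 2 libraries is a description and no test of a difference. Within each library H2afx was nevertheless above Nasp, while the order of the other 3 pairs was not the same in both. H2afy and H1fx did not overlap.

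The 10 genes had 42 annotated transcripts. H2afx, H1f0 and H1fx have 1 each, so their leading transcript could not differ. No share over all genes was taken. With those genes counted, the leading transcript by TPM was the same in both libraries for 9 genes, and Nasp was the exception. Its protein has a long form with a testis-type insert (tNASP) and a short somatic form (sNASP). Nasp-201, of 773 residues with the 975-base exon at chr4:116610403-116611377, was at 158 and 72.4 TPM. Nasp-202, of 448 residues without that exon, was at 159 and 67.4 TPM. The long form thus held 40.9% and 46.8% of the TPM of the gene and the short form 41.2% and 43.6%, and both were higher in replicate 1, by 2.18 and 2.36 times. The deposited intervals of the long and short forms overlapped in replicate 1 (149.6 to 158.4 and 149.0 to 159.7 TPM). They also overlapped in replicate 2 (67.8 to 73.3 and 62.6 to 68.7 TPM), so the change of leading form rests on a near tie. Nasp-207, a processed transcript with no annotated coding sequence, was at 67.4 TPM in replicate 1 and listed at 0 in replicate 2.

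The H2A.Z genes each showed a second coding form. H2afz-201, which encodes the full 128 residues, held 77.1% and 77.6% of the TPM of the gene, and H2afz-207, which has 61 of the 130 bases of 1 coding exon (chr3:137866080-137866140 of chr3:137866011-137866140) and encodes 105 residues, held 21.8% and 22.2%. For H2afv, the 519-base form H2afv-201 led in TPM with 67.1% and 69.6%. It lacks the 114-base coding exon at chr11:6433724-6433837 and encodes 90 residues. H2afv-202, of 1633 bases and 128 residues, held 32.9% and 30.4% of TPM but 64.2% and 61.5% of the counts. Which form of H2afv leads therefore depends on whether length is divided out, and the posterior SD of either form's count was 67.6 and 73.2.

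H3f3a-201, of 888 bases, held 72.1% and 74.2% of the TPM of H3f3a. It lacks 3 coding bases at the start of an exon and encodes 135 residues, against 136 for H3f3a-205, which held 6.13% and 7.70%. H3f3a-204, whose annotated coding sequence is incomplete, held 20.9% and 15.7%. H3f3b-201, of 136 residues, held 77.4% and 82.0% of the TPM of H3f3b, and the processed transcript H3f3b-204 held 22.4% and 16.4%. Asf1b, H2afx, H1f0 and H1fx each had all of their TPM on 1 transcript.

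**Figure D2:**
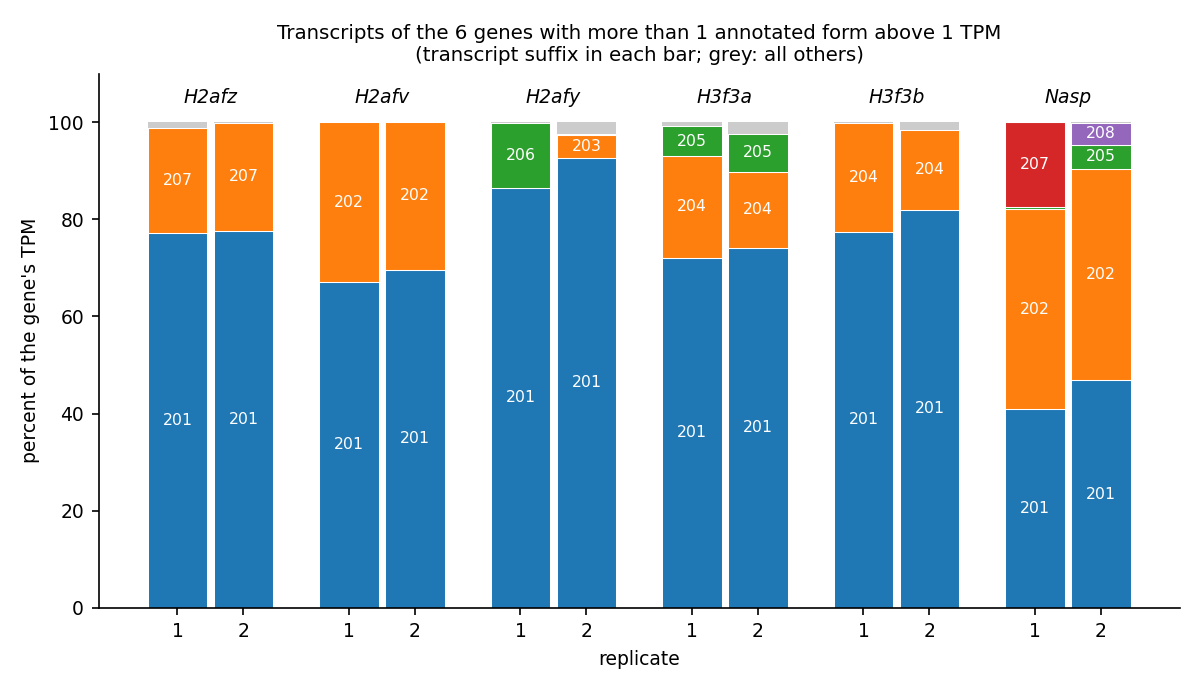
Percent of the TPM of a gene on each transcript, for the 6 genes with more than 1 form above 1 TPM, in replicates 1 and 2. Numbers in the bars are transcript suffixes and grey is all other forms; the bars of H2afz are alike in both libraries, and Nasp-207 is present in replicate 1 alone.

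The variants were then set against the replication-dependent genes of their families, taking protein-coding rows alone. No source used here says how the cDNA was primed. The shares of H3, H2A and H1 below are therefore shares of these libraries, not of the tissue. If the cDNA was primed on poly(A), Hist mRNAs may be undercounted. This was not tested. H3f3a and H3f3b held 96.3% and 91.4% of the TPM of the 14 H3 genes, a mean of 93.8 ± 3.45% (SD, n = 2). The 12 Hist genes of H3 summed to 204 and 472 TPM, and 5 and 6 of them were detected. H2afz, H2afv, H2afx and H2afy held 46.6% and 46.0% of the TPM of 27 H2A genes, a mean of 46.3 ± 0.391% (SD, n = 2). The H2A.Z pair alone held 42.6% and 43.2%.

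The remainder of H2A rested on 1 row. Hist1h2ap, a replication-dependent H2A gene, was at 6531 and 6367 TPM and made up 93.3% and 92.1% of the TPM of the 18 Hist genes of H2A. Without it the 4 variants held 91.1% and 88.5% of H2A. Its posterior count SD in the authors' tables was 87.1 and 62.1 counts of 55978 and 54089. In counts, which do not divide by the short length of Hist genes, the 4 variants held 65.9% and 63.6% of H2A.

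Among 11 H1 genes, H1f0 and H1fx held 79.8% of the TPM in replicate 1 and 48.0% in replicate 2. In counts they held 85.1% and 74.7%. The Hist genes of H1 summed to 27.8 and 105 TPM, while H1f0 was 1.10 times higher in replicate 1. Of the 9 other H1 genes 1 was detected in both libraries, 4 in replicate 2 alone and 4 in neither, these last with 0 counts. Hist1h1c was at 27.8 and 5.68 TPM. Hist1h1a, Hist1h1b, Hist1h1d and Hist1h1e had 0 counts in replicate 1 and 222, 261, 317 and 576 counts in replicate 2. Set against a floor of 3 counts in replicate 1, the ratios per 1000000 counts were 72.5, 85.2, 103 and 188. The floor covers counting error alone. Reads amplified from 1 cell-equivalent carry no molecular identifiers, so these ratios are not lower limits on a difference in RNA.

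**Figure D3:**
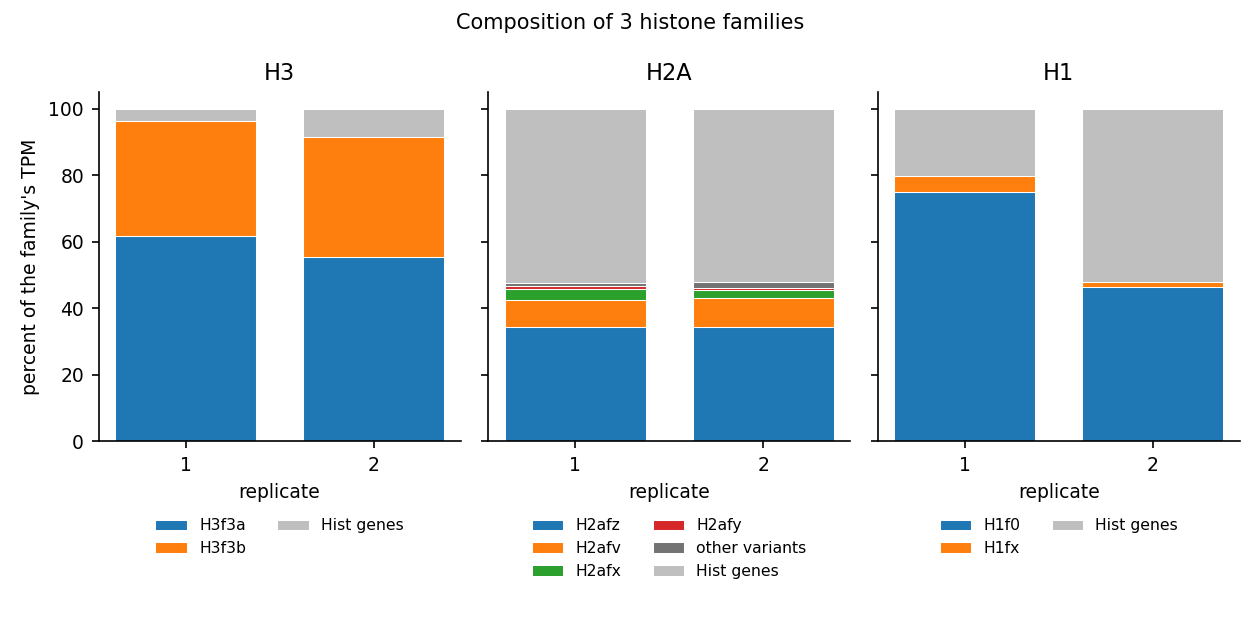
Percent of the TPM of the H3, H2A and H1 families on each variant gene, on other variants (H2A) and on the Hist genes, in replicates 1 and 2. H3.3 genes fill 96.3% and 91.4% of H3, the H2A bars are alike in both libraries, and the H1 bar changes from 79.8% to 48.0% on H1f0 and H1fx. These are shares of the libraries, in which Hist mRNAs may be undercounted if cDNA was primed on poly(A).

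The difference between libraries was taken as log2(TPM + 1) in replicate 2 minus replicate 1, which understates the change of low genes. Of the 9 genes that averaged 10 TPM or more, 2 differed by at least 2-fold, Asf1b (1.59) and Nasp (-1.32), against 51.3% of the 7680 genes at that level. The median absolute difference was 0.15 for the 9 genes and 1.04 for the 7680, and the medians of the signed differences were -0.14 and 0.02.

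The share past 2-fold was lower at higher levels, so the genes were also read within ranges of level. From 50 to 500 TPM, 2 of 5 genes (Nasp and Asf1b) differed 2-fold against 33.1% of 2703 genes, and the median absolute difference was 0.52 against 0.66. At 500 TPM and above, 0 of 4 genes differed 2-fold against 1.67% of 299, and the median absolute difference was 0.07 against 0.24. Within these ranges the counts were thus near the background, and a 2-fold difference such as those of Nasp and Asf1b was reached by 33.1% of genes of like level. The other differences were -0.52 for H2afx, -0.45 for H2afy, -0.15 for H3f3a, -0.14 for H1f0, 0.07 for H2afv, 0.06 for H3f3b and -0.005 for H2afz. H1fx, under the level of 10, differed by -0.95.

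**Figure D4:**
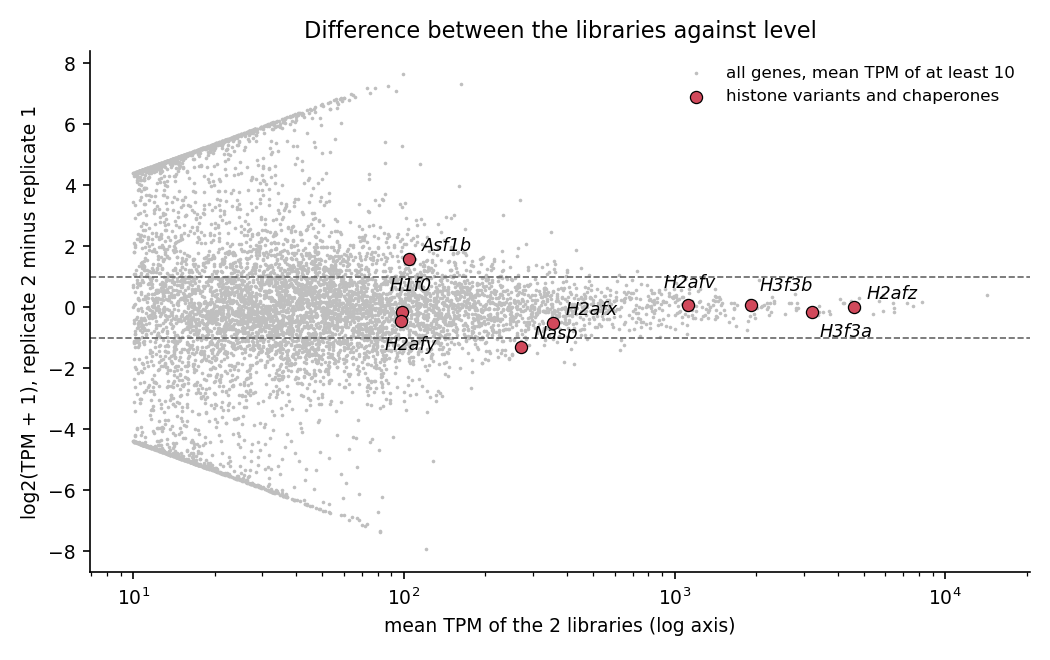
Difference between the libraries on the log2(TPM + 1) scale against mean TPM (log axis) for 7680 genes (grey) and the 9 histone and chaperone genes among them (red); dashed lines mark a 2-fold difference. Asf1b lies above the upper line and Nasp below the lower one, and the 4 genes of highest level lie near 0.

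The partners of these genes were read from 8 lists of 62 genes, of which 48 (77.4%) were detected in both libraries, beside 30.4% of all protein-coding rows. Of the 48 list genes that averaged 10 TPM or more, 16 (33.3%) differed 2-fold, beside 51.3% of all genes at that level. Many of the 16 reached that mean through 1 library alone and so had to differ. These were Hist1h1c, Hist1h1d, Hist1h1e, Hira, Mms22l, Dmap1, Atm, Prkdc and Eya3. The 51.3% holds such genes too and is not matched for level, and from 50 to 500 TPM the share of all genes was 33.1%. Nothing is therefore read from the lower share of the lists.

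All 12 genes of H3-H4 chaperoning and replication-coupled assembly were detected in both. Rbbp4, a histone-binding subunit of CAF-1, was at 497 and 398 TPM, its paralog Rbbp7 at 178 and 237 TPM, and Dnajc9, a heat-shock co-chaperone that binds H3-H4, at 217 and 263 TPM. Of the 11 that averaged 10 TPM or more, 1 was 2-fold higher in replicate 2 (Chaf1b, a CAF-1 subunit, at 48.1 and 108 TPM) and 2 were 2-fold higher in replicate 1 (Mms22l, at 42.0 and 2.08 TPM, and Asf1a). The median difference was -0.16 beside 0.02 for all genes at that level. Asf1a, the paralog of Asf1b, was at 28.9 and 10.2 TPM, so Asf1b was above it by 1.79 and 15.5 times. Asf1a and Asf1b differed in opposite directions. Of the 7 markers of dividing cells, 1 differed 2-fold, and it was higher in replicate 1; their part and that of the neural progenitor markers in the Nasp and Asf1b differences was not tested.

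For H3.3 deposition, 5 of 6 genes were detected in both, and Ubn2 was the exception at 0.01 and 18.3 TPM. Atrx, the remodeller that works with DAXX, was at 95.1 and 165 TPM, Daxx at 55.8 and 79.1 TPM, and Hira at 4.89 and 58.7 TPM. These 3 genes averaged 10 TPM or more and were higher in replicate 2, with a median difference of 0.79, and 1 of them, Hira, differed 2-fold. Hira reached the mean of 10 TPM through replicate 2 alone and so had to differ.

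The centromeric H3 variant Cenpa was at 305 and 241 TPM, and genes of its loading machinery were detected in both libraries. Mis18a, a subunit of the complex that marks centromeres for loading, was at 217 and 170.1 TPM, and the CENP-A chaperone Hjurp was at 137 and 161 TPM. The other variants on the list were H2afy2, which encodes macroH2A2, at 119 and 224 TPM, and H2afj at 21.5 and 27.5 TPM. H2afy2 was thus 1.05 and 2.72 times the level of H2afy.

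Of 9 H2A-H2B chaperones and FACT subunits, 8 were detected in both, and Npm3 was the exception with 0 and 1 counts. Npm1, nucleophosmin, was at 1096 and 1093 TPM, the template-activating factor Set at 461 and 541 TPM, and the nucleosome assembly protein Nap1l1 at 411 and 249 TPM. Of the 8, 1 differed 2-fold, Nap1l4 at 89.4 and 209 TPM, and the median difference was -0.11.

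Of 12 genes of H2A.Z exchange and removal, 11 were detected in both, and Ino80 was at 0.26 and 0.34 TPM. Vps72, the subunit that carries H2A.Z in the SRCAP and p400 complexes, was at 223 and 193 TPM. Actl6a, an actin-related subunit, was at 164.5 and 164.1 TPM, and Anp32e, a chaperone that removes H2A.Z, at 92.9 and 183 TPM. Of the 11, 3 differed 2-fold (Ep400, Dmap1 and Yeats4), all higher in replicate 1, with a median difference of -0.14. Dmap1, at 46.9 and 1.78 TPM, and Mms22l above, reached the mean of 10 TPM through replicate 1 alone and so had to differ.

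The genes that act on H2A.X summed to 58.7 and 149.8 TPM. Of 7, 4 were detected in both, and Atr, Eya1 and Eya3 passed in a single library. Baz1b, which phosphorylates a tyrosine of H2A.X, was at 42.2 and 51.5 TPM, Mdc1, which binds phosphorylated H2A.X, at 10.6 and 24.3 TPM, and the kinase Prkdc at 2.17 and 19.2 TPM. Mean levels of 10 TPM or more were reached by 5 of the 7, but Atm (2.67 and 18.3 TPM), Prkdc and Eya3 reached it through replicate 2 alone and so had to differ, and nothing is read from their direction. Eya1 and Eya3, tyrosine phosphatases of H2A.X, had 0 counts in replicate 1 and 103 and 1140 counts in replicate 2.

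**Figure D5:**
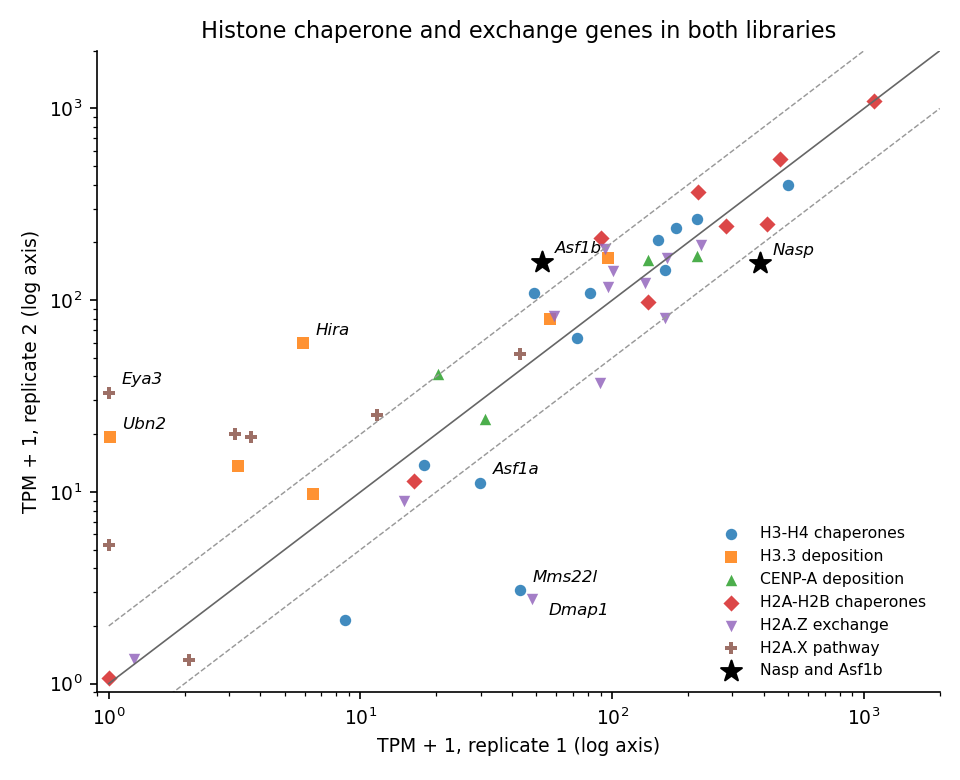
TPM + 1 in replicate 2 against replicate 1 (both log axes) for the genes of 6 lists of histone chaperones, depositors and H2A.X partners, with Nasp and Asf1b as stars; the solid line marks equal levels and the dashed lines a 2-fold difference. Nasp and Asf1b lie on opposite sides of the dashed lines, and Hira, Ubn2 and Eya3 lie far above the line at low levels in replicate 1. Dmap1 and Mms22l lie far below the line at low levels in replicate 2.

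Other annotated genes overlap some of these rows, and no source used here says whether strand was used in counting. The lincRNA Gm17275, on the opposite strand at H3f3a, was at 28.0 and 0.06 TPM, and the antisense gene H3f3aos was at 0 in both. The antisense gene Gm5577 at H1fx was at 0.07 TPM in both, from 1.16 and 1.15 counts. Deposited lengths matched release M21 for 40 of the 42 transcripts, and H2afy-202 and the single transcript of H1f0 were the ones that differed.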

How the data were processed

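The authors deposited a gene and a transcript table for each of the 2 libraries, and the text with the tables names the assembly mm10 and annotation release M4. Per the file headers, the values are expected counts (estimated reads that need not be whole), TPM and FPKM, with the percent of a gene's TPM on each transcript. The deposited posterior SDs and interval limits were read as a score. No source used here gives the level of those intervals, the aligner, the quantifier or the use of strand. Symbols and coordinates came by gene ID from GENCODE M21, also mm10, which matched 42462 of 43346 gene IDs (98.0%). RNA of the 2 libraries came from separate pools of embryos, and SDs over them may be biological or technical.

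The 10 genes and the lists were chosen with earlier results of these data known. The text names all 10 genes and, from each list, the 3 genes of highest mean TPM detected in both libraries, or the highest where none was; genes named outside it were chosen after their values were seen. A gene that the rule takes is not reported here. Genes were detected at a TPM of at least 1, and 2-fold differences were counted on log2(TPM + 1) at a mean TPM of at least 10. The code of this count was tried on simulated libraries with counting error alone. That setting lacks the spread between amplified libraries, so it does not show how reliable a 2-fold difference is here. Copies are rows sharing at least 50% of their 50-base runs with a member. With 1 group, no likeness between genes was computed. Alternatives used edgeR 4.0.16 and DESeq2 scaling of counts rounded to whole numbers. Reads carry no molecular identifiers, so intervals cover counting error only.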

Additional observations from a re-analysis of the deposited data

How the results depend on the processing

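The count of 2 genes differing 2-fold, Nasp and Asf1b, was the same under all 8 alternatives tried (pseudocounts, posterior mean TPM, TMM and DESeq2 scaling, TPM over gene rows alone, no filter and a higher filter). The difference of Nasp ran from -1.34 to -1.22 and that of Asf1b from 1.52 to 1.60. The background count of 3940 genes became 6995 with no filter on low values and 899 at a mean TPM of at least 50. Over expected counts, the H3.3 share of H3 was 97.6% and the variant share of H2A 64.7%, since Hist transcripts are short. Without each replicate in turn, the H3.3 share ran from 91.4 to 96.3%, the H2A share from 46.0 to 46.6% and the H1 share from 48.0 to 79.8%. With a pseudocount of 0.1, the difference of H1fx passed 2-fold, at -1.14. The mean of H2afz was 4480 as posterior mean TPM and 4962 as TPM over gene rows alone, both shifts beyond its SD of 10.8. Over gene rows alone, the means of H2afv, H3f3a, H3f3b and H1f0 also moved by more than their SD. At a TPM of at least 5, 9 of the 10 genes and 41 of the 62 list genes were detected in both libraries. Some alternatives were chosen after seeing the data. These were summing the TPM of copies with that of H2afz and H3f3a (means of 5789 and 3735 TPM), and ranking transcripts by expected counts. Counting 2-fold differences on TPM over gene rows was another. By expected counts the leading transcript was the same in both libraries for all 10 genes. This includes H2afx, H1f0 and H1fx, which have 1 annotated transcript each and could not differ. No paired analysis was possible because there is a single group.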
